A study of Mus musculus with 33 samples.

Results

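The borders of lamina-associated domains (LADs) were taken as every end of every LAD of at least 100 kb on chromosomes 1 to 19, in the LAD maps of mouse forebrain, heart and embryonic stem (mES) cells. The forebrain map gave 2354 borders from 1177 LADs, the heart map 3480 borders from 1740 LADs and the mES map 2364 borders from 1182 LADs. These 8198 borders are part of the 15078 ends of LADs of any length in the 3 maps. Each border was placed in a class by the state of the 10 kb bin just outside the LAD in the map of the same source, which was KOD, open or in no list. Borders and classes were thus read from the same maps that they describe. LADs of exactly 100 kb, just inside the length limit, numbered 66 in forebrain, 113 in the heart and 42 in mES cells, and LADs of 90 kb, just outside it, numbered 44, 76 and 30 in the same order.

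The maps came from CUT&RUN, an assay in which an antibody brings a nuclease to chromatin in unfixed cells so that the DNA under the antibody is cut and released. Histone H3 dimethylated at lysine 9 (H3K9me2) and Lamin B1 were each profiled in 3 libraries per source, and IgG controls in 6 forebrain, 6 heart and 3 mES libraries, which makes 33 libraries in 9 groups. Forebrain was the right forebrain lobe and heart the whole heart of wildtype C57BL6J embryos at E11.5, dissociated with papain and pooled by litter, so that each replicate mixes several cell types of several embryos. The mES cells were a C57BL/6 line from a cell bank, thawed on feeder fibroblasts, moved to medium with LIF and the inhibitors PD0325901 and CHIR99021 (2i), and dissociated with TrypLE, with separate culture vessels as replicates. No expression was measured, so tissue identity could not be checked against marker genes. The authors' lists name stretches of the mm10 genome as LAD, KOD or open in whole bins of 10 kb, and KOD is their own label, which the sources used here do not spell out. The 3 lists of a source never overlapped, and they left some bins of the mapped 2401 Mb in no list. Each list pools its replicates, so there is 1 map per source. Values below have no replicate error, the read depth of a domain cannot be given, and no test between sources was possible. The spread over the 19 chromosomes is given in its place, as a description of how evenly a value holds along the genome.

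LADs are long stretches of the genome that touch the nuclear lamina, the protein mesh of A-type and B-type lamins under the inner nuclear membrane. They are poor in genes, replicate late and carry H3K9me2, a mark set mainly by the enzymes G9a and GLP, and the chromatin at the nuclear edge is mostly silent. In earlier work on LADs, borders have been described as sharp and often lying near promoters with CpG islands that are transcribed away from the LAD. As cells differentiate, some genes of the new lineage are known to leave the lamina and others to join it.

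The sequences below show how many CG dinucleotides promoters on either side of a LAD border can hold, a large and a small difference. Among the borders that lay at the same bin edge in all 3 maps with open as the next listed state in all 3, there were 19, and 4 of them had an annotated gene start within 100 kb on both sides. Of these 4, the border with the largest and the border with the smallest difference in the number of CG dinucleotides between the promoters on its outer and inner side are shown. Each sequence is RefSeq GRCm38.p6 (the assembly of mm10), 5′ to 3′ along the gene's strand, and runs from 250 bases before to 50 bases after the gene start. Capitals mark CG. The first border ends a LAD after base 17110000 of chromosome 11. Ppp3r1, the regulatory subunit of the phosphatase calcineurin, starts 49.3 kb outside it (chr11:17159048-17159347, plus strand) and has 36 CG. Cnrip1, a protein that binds the cannabinoid receptor, starts 58.1 kb inside it (chr11:17051609-17051908, plus strand) and has 8 CG. The second border ends a LAD after base 124350000 of chromosome 6. Pex5, the receptor that imports proteins into peroxisomes, starts 65.9 kb outside it (chr6:124415806-124416105, minus strand) and has 9 CG. Cd163, a scavenger receptor of macrophages, starts 45.3 kb inside it (chr6:124304401-124304700, plus strand) and has 2 CG. The Ppp3r1 start lies in an unlisted gap before open in all 3 maps, of 50 kb in forebrain and heart and 60 kb in mES cells. The Pex5 start lies in such a gap of 120 kb in heart.
Ppp3r1: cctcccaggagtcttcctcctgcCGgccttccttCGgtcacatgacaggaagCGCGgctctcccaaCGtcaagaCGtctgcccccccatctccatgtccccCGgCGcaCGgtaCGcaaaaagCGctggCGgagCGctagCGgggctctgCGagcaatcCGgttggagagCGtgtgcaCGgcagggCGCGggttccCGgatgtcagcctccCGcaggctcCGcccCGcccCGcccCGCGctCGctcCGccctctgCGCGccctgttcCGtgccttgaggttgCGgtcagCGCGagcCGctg
Cnrip1: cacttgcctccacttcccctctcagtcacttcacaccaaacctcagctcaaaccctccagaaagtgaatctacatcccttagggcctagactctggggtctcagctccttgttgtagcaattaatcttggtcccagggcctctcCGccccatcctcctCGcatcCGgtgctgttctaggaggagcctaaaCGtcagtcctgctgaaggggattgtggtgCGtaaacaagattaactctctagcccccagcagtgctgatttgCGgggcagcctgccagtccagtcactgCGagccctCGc
Pex5: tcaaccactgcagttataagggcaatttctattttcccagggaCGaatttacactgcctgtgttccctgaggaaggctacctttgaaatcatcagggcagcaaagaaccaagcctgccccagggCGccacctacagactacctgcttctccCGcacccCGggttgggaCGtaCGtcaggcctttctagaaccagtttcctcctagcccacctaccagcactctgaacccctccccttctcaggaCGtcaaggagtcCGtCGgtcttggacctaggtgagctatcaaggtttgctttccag
Cd163: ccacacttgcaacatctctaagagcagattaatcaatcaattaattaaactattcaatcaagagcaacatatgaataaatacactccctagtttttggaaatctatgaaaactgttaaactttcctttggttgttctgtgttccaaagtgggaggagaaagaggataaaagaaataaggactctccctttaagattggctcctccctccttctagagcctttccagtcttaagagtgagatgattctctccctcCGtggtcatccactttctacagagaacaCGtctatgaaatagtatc

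The other 2 of the 4 borders had Eef1aknmt with 26 CG outside and Dnm3 with 12 inside, and Shf with 27 CG outside and Slc28a2 with 1 inside. CG was counted on 1 strand, which gives the same count on the other. Over the 16457 promoters available, the median was 14 CG and 95.04% held at least 1. At each of these 4 borders the outer promoter held more CG than the inner one, but they are 4 examples chosen by the rule above, and the counts for whole border classes are given further on.

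Few LADs met a KOD or an open domain directly. In forebrain 197 of the 2354 borders (8.37%) touched a KOD, 160 (6.80%) touched open and 1997 (84.8%) had a first bin in no list. In heart 236 of the 3480 borders (6.78%) touched a KOD, 166 (4.77%) touched open and 3078 (88.4%) had a first bin in no list. In mES cells 220 of the 2364 borders (9.31%) touched a KOD, 71 (3.00%) touched open and 2073 (87.7%) had a first bin in no list. An unlisted strip thus lay outside most LADs in each source. Over all bins outside LADs the shares were quite different, with KOD at 30.7% in forebrain, 30.8% in the heart and 31.1% in mES cells, open at 55.5%, 49.8% and 56.2% in the same order, and no list at 13.8%, 19.4% and 12.7%. Open was therefore the scarcest class at the first bin and the most common one among non-LAD bins.

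Of the class shares by first bin, that of open differed most evenly between the sources. The share touching open was higher in forebrain than in mES cells on 17 of 19 chromosomes, with a mean difference of 3.74 ± 2.71 percentage points (SD over 19 chromosomes). It was higher in heart than in mES cells on 16 of 19 chromosomes, by 2.06 ± 2.08 points, and higher in forebrain than in heart on 14 of 19, by 1.68 ± 3.47 points. The share touching a KOD differed less evenly. It was higher in forebrain than in mES cells on 9 of 19 chromosomes and higher in forebrain than in heart on 10 of 19. In heart it was lower than in mES cells on 14 of 19, with a mean difference of -0.966 points (SD 6.68). Lower and upper ends of LADs gave like shares, for example 8.33% and 8.41% touching a KOD in forebrain.

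To see what lay behind the unlisted strip, each border was also read by the next listed state outward, however far. Open was next at 1111 borders (47.2%) in forebrain, 1089 (31.3%) in the heart and 829 (35.1%) in mES cells. KOD was next at 251 borders (10.7%) in forebrain, 274 (7.87%) in the heart and 255 (10.8%) in mES cells. The next listed state was again a LAD at 978 borders (41.5%) in forebrain, 2107 (60.5%) in the heart and 1271 (53.8%) in mES cells, and the remaining 14, 10 and 9 borders ran into the end of the mapped chromosome. Heart thus had many borders at plain gaps within LAD chromatin and forebrain the fewest. The share of borders with LAD as the next state was lower in forebrain than in heart on 19 of 19 chromosomes, by 17.4 points on average (SD 9.49), and lower in forebrain than in mES cells on 18 of 19, by 12.5 points (SD 7.12). Open as the next state was higher in forebrain than in heart on 19 of 19 chromosomes and higher in forebrain than in mES cells on 16 of 19. Between heart and mES cells it was higher in heart on 8 and lower on 11 chromosomes, with a mean difference of -3.89 points (SD 8.29), whereas contact with open at the first bin had been higher in heart on 16.

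**Figure D1:**
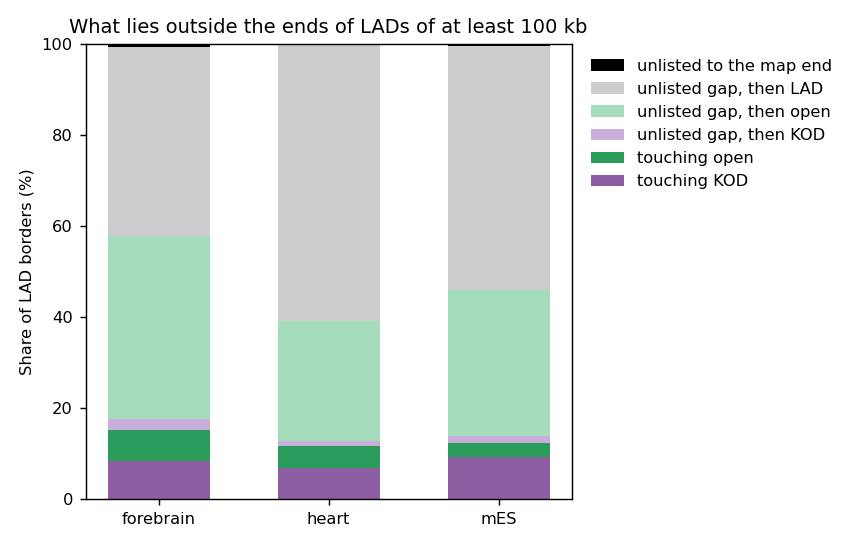
Share of LAD borders (%, vertical axis) in forebrain, heart and mES cells, 1 stacked bar per source, split by what lies outside: a touching KOD or open domain (dark colours), a KOD or open domain past an unlisted gap (light colours), an unlisted gap and then LAD again (grey), or the map end (black). The grey part takes 41.5% of forebrain borders, 60.5% of heart borders and 53.8% of mES borders.

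The unlisted strip was a property of open neighbours far more than of KOD neighbours. Of the borders whose next listed state was KOD, 78.5% in forebrain, 86.1% in the heart and 86.3% in mES cells touched it. Of those whose next state was open, 14.4% in forebrain, 15.2% in the heart and 8.56% in mES cells touched it. Where an unlisted gap stood before open, its median length was 30 kb in forebrain, 40 kb in heart and 40 kb in mES cells. Where a gap stood before a KOD, the median was 20 kb in each of the 3 sources. Gaps that led back to a LAD had medians of 60 kb in forebrain, 40 kb in heart and 70 kb in mES cells, so those of the heart were the shortest.

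The same pattern held when read from the other side, at the ends of KODs and open domains. Open domains ended on a LAD directly at 3.61% of their ends in forebrain, 4.27% in the heart and 1.87% in mES cells, and on an unlisted gap followed by a LAD at 20.6%, 21.1% and 16.9% in the same order. KODs ended on a LAD directly at 8.80% of their ends in the forebrain map, 14.5% in heart and 10.0% in mES cells, and on a gap followed by a LAD at 2.77%, 2.27% and 1.53%. Most KOD ends touched open directly, at 78.1% in forebrain, 71.9% in the heart and 80.8% in mES cells. Of the ends of open domains 54.9% in forebrain, 51.1% in the heart and 67.4% in mES cells touched a KOD, and 41.4%, 44.4% and 30.5% lay next to an unlisted gap.

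Among outer borders, meaning those whose next listed state was KOD or open, KOD made up 251 of 1362 (18.4%) in forebrain, 274 of 1363 (20.1%) in heart and 255 of 1084 (23.5%) in mES cells. KOD took 35.6% of all KOD and open bins in forebrain, 38.2% in the heart and 35.6% in mES cells, so at LAD borders it was met less often than its extent. The share varied widely by chromosome. It ran between 2.88% on chromosome 3 and 41.5% on chromosome 19 in forebrain, between 2.53% on chromosome 10 and 67.5% on chromosome 19 in heart, and between 8.20% on chromosome 10 and 37.7% on chromosome 9 in mES cells. Chromosome 19 of the heart stood apart, with 27 of its 40 outer borders facing a KOD.

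The KODs that touched LADs were short, and many were islands between LADs. The median length of the touched KOD was 30 kb in forebrain, 30 kb in heart and 40 kb in mES cells, against 130 kb, 155 kb and 140 kb for touched open domains in the same order. Past the far end of the touched KOD and any unlisted gap, the next state was again LAD for 118 of 197 borders (59.9%) in forebrain, 141 of 236 (59.7%) in heart and 102 of 220 (46.4%) in mES cells. It was open for 29.4% in forebrain, 32.6% in the heart and 43.2% in mES cells. For touched open domains the state past the far end was LAD at 56.2% of borders in forebrain, 57.2% in the heart and 35.2% in mES cells. In mES cells both kinds of neighbour led back to a LAD less often than in the tissues.

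Contacts with KODs were commonest on short LADs. Among LADs of 100 to 190 kb, 11.2% of borders in forebrain, 11.4% in the heart and 18.0% in mES cells touched a KOD. Among LADs of 1000 kb and more, the shares were 3.66% in forebrain, 0.208% in the heart and 3.88% in mES cells. The share touching open varied less with length, at 6.68% and 7.32% in forebrain, 5.51% and 3.33% in heart, and 2.94% and 1.55% in mES cells, for LADs of 100 to 190 kb and of 1000 kb and more. Long LADs therefore had few KOD contacts, and in the heart LADs of 1000 kb and more had 71.5% of their borders at gaps that led back to a LAD, against 39.0% in forebrain and 57.0% in mES cells. Taken over whole LADs, both ends led to another LAD for 19.6% of LADs in forebrain, 41.6% in the heart and 32.6% in mES cells, and both ends faced open for 23.6%, 11.6% and 13.2% in the same order.

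The gaps behind such borders were mapped as LAD in other sources to very different degrees. Heart had 1502 unlisted gaps between LADs next to a border, 103.0 Mb in all, and 66.3% of their bins were LAD in forebrain and 62.7% LAD in mES cells. Forebrain had 665 such gaps, 50.2 Mb in all, of which 10.8% of bins were LAD in heart and 23.8% LAD in mES cells, and mES cells had 833 gaps, 74.4 Mb in all, of which 43.7% were LAD in forebrain and 18.5% LAD in heart. Most gap bins of the heart thus lay in LAD chromatin elsewhere, whereas 60.1% of the gap bins of forebrain were in no list in heart too. Gap bins were also richer in genes than LADs. A protein-coding gene overlapped 64.9% of gap bins in forebrain, 52.0% in the heart and 58.4% in mES cells, against 26.3%, 24.4% and 27.3% of all LAD bins. Whether the threshold or depth of the heart map set its number of gaps was not tested.

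Borders were next compared by position between maps, counting a border as shared when the other source had a border of the same side within 20 kb. Of the forebrain borders 724 (30.8%) were shared with mES cells, where 2.46% of all bin edges have an mES border of a given side that close. Of the heart borders 785 (22.6%) were shared with mES cells, with the same 2.46% of all edges. Of the forebrain borders 711 (30.2%) were shared with heart, beside 3.62% of all edges. Seen from the other map of each pair, the shares were 30.6% of mES borders in forebrain (2.45% of all edges), 33.2% of mES borders in heart (3.62%) and 20.4% of heart borders in forebrain (2.45%). Heart borders, which were the most numerous, had the lower shares, and the share of all edges also differs between pairs with the number of borders in the other map. Exactly the same bin edge was used by 230 borders of forebrain and mES cells, 278 of heart and mES cells and 205 of forebrain and heart. The median distance to the nearest border of the same side in the other map was 70 kb for forebrain borders in mES cells, 220 kb for heart borders in mES cells and 60 kb for forebrain borders in heart. Borders shared with both other maps were 15.2% of those in forebrain, 10.5% in the heart and 15.6% in mES cells, and borders shared with neither were 54.2%, 67.6% and 51.8%.

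Whether a border kept its position went with the state it faced. Borders facing open were shared at 38.9% for forebrain in mES cells, 37.8% for heart in mES cells and 41.0% for forebrain in heart. Borders facing a KOD were shared at 13.1%, 9.12% and 16.7% in the same pairs. In the other direction, borders facing open were shared at 43.8% for mES in forebrain, 39.6% for mES in heart and 39.6% for heart in forebrain, against 15.7%, 10.98% and 11.3% for those facing a KOD. The share was lower for KOD than for open in each of the 6 directions, on 17 to 19 of the 19 chromosomes. A border facing a KOD in forebrain lay a median of 330 kb from the nearest mES border of its side, and a border facing open 40 kb.

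KOD contacts were commoner on short LADs, and in each direction the ends of LADs of 100 to 190 kb were shared less often than those of LADs of 1000 kb and more, so the comparison was repeated within length classes. For forebrain borders in mES cells, LADs of 100 to 190 kb had 12 of 104 KOD borders and 68 of 292 open borders (23.3%) shared. LADs of 200 to 490 kb had 12 of 80 (15.0%) and 104 of 272 (38.2%), and LADs of 500 kb and more 9 of 67 (13.4%) and 260 of 547 (47.5%). The gap was thus widest for long LADs in this pair. In each of the 3 length classes and each of the 6 directions KOD borders had the lower share, with some of the KOD counts as small as 24 borders, for heart LADs of 500 kb and more. The 2 directions of a pair use the same shared borders and are not independent of each other, and the 3 pairs share maps.

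**Figure D2:**
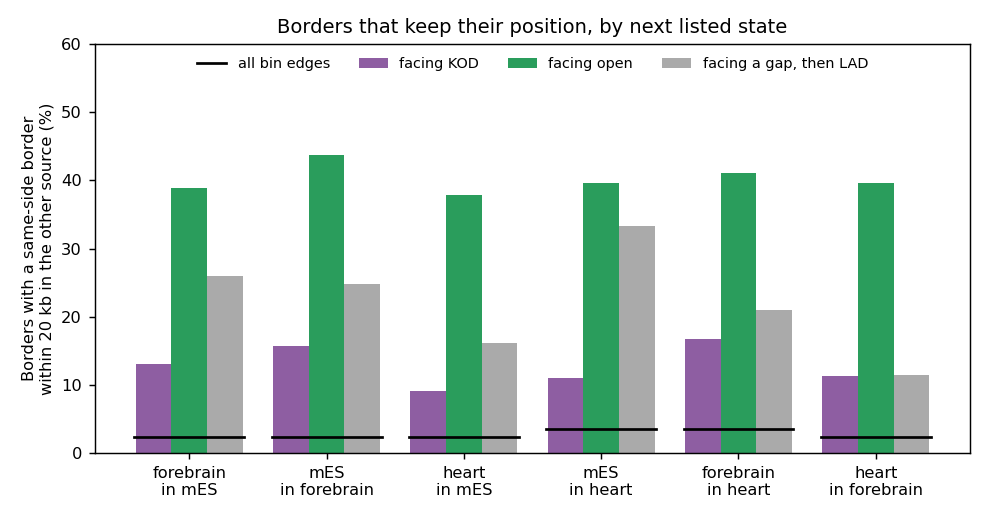
Share of LAD borders (%, vertical axis) that have a border of the same side within 20 kb in another source, for the 6 directions of comparison, by the next listed state of the border: KOD (purple), open (green) or LAD past an unlisted gap (grey). Black lines give the share over all bin edges, 2.45% to 3.62%, and the purple bars, 9.12% to 16.7%, are below the green bars, 37.8% to 43.8%, in each direction.

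Where an outer border was shared within 20 kb with an outer border of the other map, the state it faced was mostly the same. Of the outer borders of forebrain 25.6% had an outer mES border that close and of those of heart 21.4%, beside 1.13% of all edges, and of those of forebrain 28.7% had an outer heart border that close, beside 1.42% of all edges. Of those of heart 28.7% had an outer forebrain border that close, beside 1.42% of all edges, so among outer borders the lower share of heart in forebrain was not seen. Of 348 such borders of forebrain and mES cells, 305 (87.6%) faced open in both, 12 faced a KOD in both, 13 faced a KOD in forebrain and open in mES cells, and 18 faced open in forebrain and a KOD in mES cells. Of 292 of heart and mES cells, 256 (87.7%) faced open in both and 8 a KOD in both, while 28 (9.59%) exchanged KOD and open. Of 391 of forebrain and heart, 350 (89.5%) faced open in both and 15 a KOD in both, while 26 (6.65%) exchanged. Shared outer borders were thus mostly LAD to open transitions, and those that faced a KOD in 1 map often faced open in the other. By the first bin alone, the class changed at 16.4% of the 724 borders shared by forebrain and mES cells, 12.2% of the 785 of heart and mES cells and 18.6% of the 711 of forebrain and heart. Direct exchange of KOD and open at the first bin took place at 9, 5 and 10 borders of these pairs.

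Heart borders lay mostly inside LADs of the other sources. Both bins at a heart border were LAD in forebrain at 70.3% of borders and LAD in mES cells at 61.4%, against 43.2% of all bin edges in forebrain and 42.8% in mES cells. For mES borders the values were 58.7% in forebrain and 36.4% in heart, and for forebrain borders 33.3% in mES cells and 24.3% in heart, where 38.6% of all heart edges have LAD on both sides. Forebrain borders were thus less often buried in a LAD of another source than an average edge, and heart borders more often. The state faced went with this in forebrain. Forebrain borders facing a KOD had LAD on both sides in mES cells at 74.9% of 251, and those facing open at 23.8% of 1111. For heart borders in mES cells the shares were 51.8% of 274 facing a KOD and 36.6% of 1089 facing open, but for heart borders in forebrain the order was turned round, at 44.9% facing a KOD and 52.2% facing open. For mES borders the shares in forebrain were 39.2% facing a KOD and 51.4% facing open, and those in heart 47.8% and 36.9%. The link with the state faced was thus not the same in the 6 directions.

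The average map around the borders gave the position of the change in the other sources. At 40 to 50 kb outside forebrain borders that faced open, 0.990% of forebrain bins, 8.37% of heart bins and 10.8% of mES bins were LAD, while at 40 to 50 kb inside them 70.3% of heart bins and 68.8% of mES bins were LAD. A forebrain border facing open was thus a step between LAD and non-LAD chromatin in heart and mES cells as well, though a blurred one. At the same distance outside forebrain borders that faced a KOD, 23.9% of forebrain bins, 51.4% of heart bins and 64.1% of mES bins were LAD, and inside them 70.1% of heart bins and 80.5% of mES bins. Outside mES borders facing open, 19.2% of forebrain bins and 15.0% of heart bins were LAD, and outside mES borders facing a KOD 28.6% and 38.4%. The step in the other maps was thus smaller at forebrain borders facing a KOD than at those facing open.

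**Figure D3:**
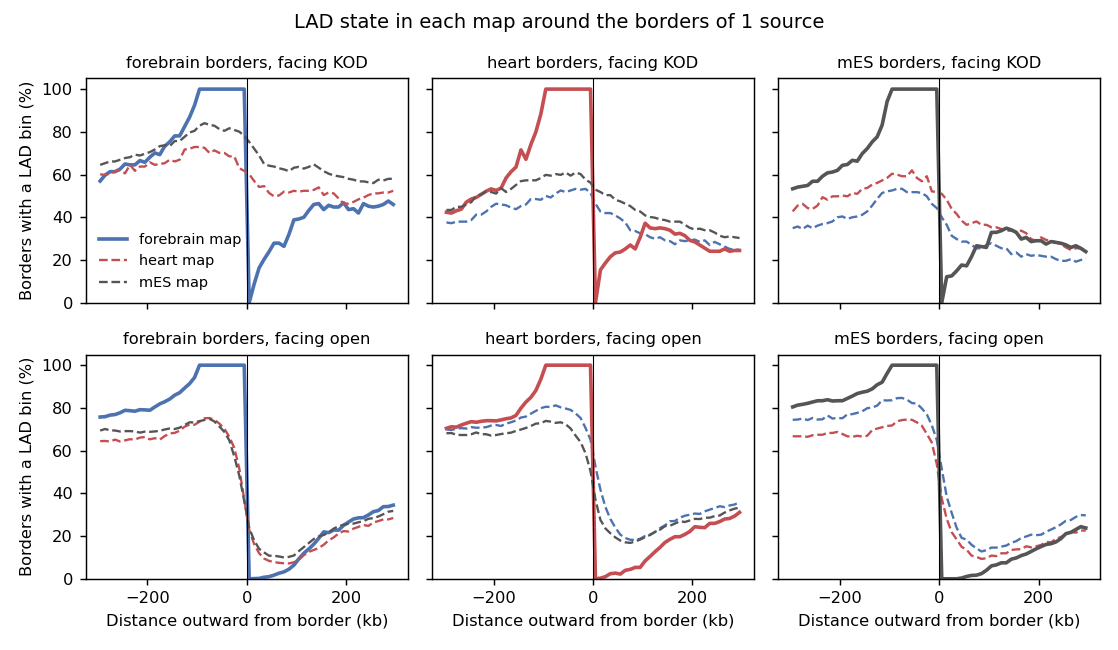
Share of borders (%, vertical axis) whose bin is LAD, by distance outward from the border (kb, horizontal axis, negative inside the LAD), around forebrain, heart and mES borders that face a KOD (upper row) or open (lower row). The solid line is the map the borders come from, where the 100 kb inside are LAD by the rule, and dashed lines are the other maps, which fall steeply only around borders facing open.

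Border positions of 2 maps were then paired as nearest neighbours in both directions, on the same side and within 500 kb, and a shift was counted as positive where the LAD reached further out in the source named first. Forebrain and mES cells gave 1565 pairs, heart and mES cells 1742, and forebrain and heart 1715, and the median absolute shift was 30 kb in each of the 3 comparisons. LADs of forebrain extended further out than those of mES cells at 901 borders, less far at 434 and equally far at 230. LADs of heart extended further out than those of mES cells at 613 borders, less far at 851 and equally far at 278. LADs of forebrain extended further out than those of heart at 1096 borders, less far at 414 and equally far at 205. The order of LAD reach at paired borders was thus forebrain, then mES cells, then heart. More borders were further out in forebrain than in mES cells on 18 of 19 chromosomes, more were further out in heart than in mES cells on 2 of 19, and more were further out in forebrain than in heart on 18 of 19. The summed shift was 23.6 Mb outward in forebrain relative to mES cells and -29.7 Mb in heart relative to mES cells. It was 45.8 Mb outward in forebrain relative to heart. These sums are of border positions and not of LAD gained or lost, since the interval between paired borders can be LAD in both maps. At chr18:15750001-16230000 the paired border stood 480 kb further out in heart than in forebrain, yet 470 kb of that interval were LAD in forebrain.

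At outer borders the picture for heart was different. With outer borders paired among themselves, heart LADs reached further out than mES LADs at 292 borders and less far at 258, with more outward than inward shifts on 11 of 19 chromosomes and fewer on 7. Forebrain LADs still reached further out than mES LADs at 378 and less far at 214, and further than heart LADs at 415 and less far at 235. The summed shift of outer borders in heart relative to mES cells was -3.10 Mb, inward as over all borders, so at outer borders the count and the sum of shifts differed in sign.

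The direction of a shift went with the states on its 2 sides. Of 50 pairs facing a KOD in forebrain and open in mES cells, the LAD ended further in at 42 in forebrain, with a median shift of -55.0 kb. Of 68 pairs facing open in forebrain and a KOD in mES cells, the LAD reached further out at 51 in forebrain, with a median of 35.0 kb. Pairs facing open in both had a median absolute shift of 20 kb (545 pairs) and pairs facing a KOD in both 80 kb (31 pairs). The map in which a border faced a KOD was thus mostly the one in which the LAD ended earlier. The same held in heart and mES cells, where the LAD ended further in at 48 of 62 pairs facing a KOD in heart and open in mES cells. In forebrain and heart it ended further in at 35 of 53 pairs facing a KOD in forebrain and open in heart.

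**Figure D4:**
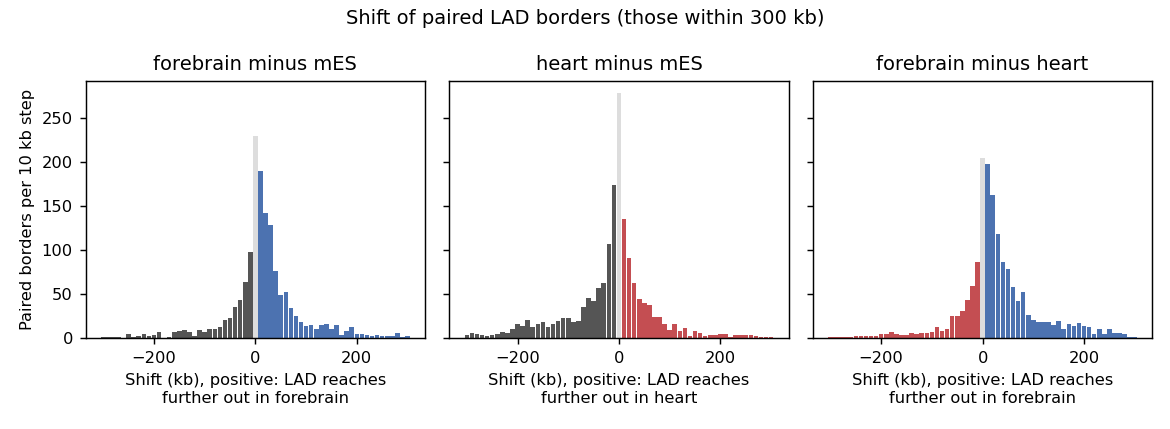
Number of paired LAD borders (vertical axis) by shift in steps of 10 kb (horizontal axis), for forebrain minus mES, heart minus mES and forebrain minus heart, limited to shifts of up to 300 kb either way. Bars right of 0 are borders where the LAD reaches further out in the source named first, and they outnumber those left of 0 in forebrain minus mES (901 against 434) and forebrain minus heart (1096 against 414) but not in heart minus mES (613 against 851), counted over shifts of up to 500 kb.

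Examples are given from the longest shifts whose interval was listed in every bin of both maps. Intervals that were mostly LAD in both maps are not among those described. Most borders facing open had an unlisted strip and most facing a KOD had none, so this choice leaves out most shifts into open chromatin and the examples say nothing of how often shifts ran through either state. At chr7:124010001-124410000 the forebrain LAD ended 400 kb earlier than the mES LAD, and the interval, which holds 93% of Hs3st4, an enzyme that adds sulphate to heparan sulphate, was KOD over 380 kb and open over 20 kb in forebrain. At chr15:10170001-10400000 the forebrain LAD reached 230 kb further out than the mES LAD, over the whole of Prlr, the prolactin receptor, where mES cells had KOD over 200 kb. At chr16:25750001-25980000 it reached 230 kb further out than in mES cells, over 68% of Trp63, a transcription factor of stratified epithelia, where mES cells had KOD over 170 kb. Each of these 3 intervals covered all or most of a gene from none of the lists. At chr7:95910001-96170000 the forebrain LAD extended 260 kb past the mES border, over mES KOD for 240 kb, and the heart LAD extended 240 kb over the same KOD, with no protein-coding gene in it.

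Among the examples of heart and mES cells, Nfia, a transcription factor that drives glial and forebrain development, was the one in open chromatin. At chr4:97820001-98150000, which holds 55% of Nfia, the heart LAD ended 330 kb earlier than the mES LAD and the interval was open over 320 kb in heart. At chr12:74850001-75310000 it ended 460 kb earlier than in mES cells, over the whole of Kcnh5, a voltage-gated potassium channel, and KOD covered 360 kb of it in heart. The forebrain LAD reached 440 kb further out than the heart LAD at the same place. At chr5:26150001-26580000 the heart LAD reached 430 kb further out than the mES LAD over an interval that was KOD throughout in mES cells. Of the shifted borders, only 107 of 1335 in forebrain and mES cells, 135 of 1464 in heart and mES cells and 134 of 1510 in forebrain and heart had every bin of the interval listed in both maps, so these examples come from a small part of the shifts.

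Genes with at least 50% of their body in a displaced interval numbered 501 of 20665 (2.42%) between forebrain and mES cells, 316 of them where the forebrain LAD reached further out, 153 where the mES LAD did and 32 in overlapping intervals of both kinds. Between heart and mES cells there were 512 (2.48%), with 197 where the heart LAD reached further out, 280 where the mES LAD did and 35 of both kinds. Between forebrain and heart there were 501 (2.42%), with 341 where the forebrain LAD reached further out, 150 where the heart LAD did and 10 of both kinds. These counts follow the excess of outward shifts in forebrain and inward shifts in heart. A displaced interval can hold LAD bins in both maps, so a gene in it need not change state. Of lists of 19 pluripotency genes, 38 genes of cardiac contraction and conduction, 20 cardiac and 30 forebrain transcription factors and 49 neuronal and axon guidance genes found in the annotation, 0 to 5 per list lay in a displaced interval in each comparison. For the 19 pluripotency genes the count was 0 in each of the 3, beside a share of 2.42% to 2.48% of all genes, so a list of this size shows nothing by its 0.

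The cardiac genes at displaced borders of the heart were on the side where the LAD ended earlier in heart. Actc1, the cardiac alpha-actin gene, lay wholly in an interval (chr2:113990001-114060000) that was LAD over its 70 kb in forebrain and likewise in mES cells, whereas in heart 50 kb of it were open and the border stood 70 kb further in. Isl1, a transcription factor of cardiac progenitors and motor neurons, had 84.8% of its body in an interval of 200 kb, of which LAD covered 80 kb in heart and the whole in mES cells. Nebl, which encodes the cardiac Z-disc protein nebulette, had 73.9% of its body in an interval where the forebrain LAD reached 290 kb further out than the heart LAD, although forebrain listed only 160 kb of that interval as LAD. These were 1 of 38 contraction genes in heart and mES cells, 1 of 20 cardiac transcription factors in heart and mES cells and 2 of 38 contraction genes in forebrain and heart, beside 2.48% and 2.42% of all genes, and Actc1 counts in both comparisons at the same heart border. In each of them the heart LAD was the one that ended earlier, as it was for 280 of the 512 genes of heart and mES cells and 341 of the 501 of forebrain and heart.

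Most of the neural genes at displaced borders of heart and mES cells lay the same way. In heart and mES cells, 5 of 49 neuronal and axon guidance genes were displaced, beside 2.48% of all genes. Epha3, Epha7, Gria2 and Pcdh7 were on the mES LAD side, and Cdh10 lay in overlapping intervals of both kinds. Of 30 forebrain transcription factors 1 was displaced, Nfia, on the mES LAD side. Epha3 and Epha7 encode ephrin receptors that guide axons, Gria2 an AMPA glutamate receptor subunit, and Pcdh7 and Cdh10 cell adhesion molecules. Pcdh7 had 87.1% of its body in an interval of 390 kb, open over 350 kb in heart and LAD throughout in mES cells. Epha7 had 63.1% in an interval of 280 kb that was LAD throughout in mES cells. In heart that interval was open over 80 kb, LAD over 50 kb and in no list over 150 kb. The intervals of Epha3 and Gria2 had no open bin in heart. That of Epha3 was in no list over its 200 kb, and that of Gria2 was in no list over 220 kb and LAD over 50 kb. In forebrain and mES cells, 2 of 49 neuronal genes were displaced, beside 2.42% of all genes, namely Epha3 and Epha7, both on the mES LAD side. Epha7 had 58.3% of its body in an interval of 90 kb, open throughout in forebrain and LAD throughout in mES cells. The Epha3 interval of 330 kb was LAD throughout in mES cells. In forebrain it was LAD over 160 kb, in no list over 100 kb, open over 50 kb and KOD over 20 kb. Mef2c, a transcription factor of muscle and neurons, had 85.9% of its body in an interval of 140 kb that was unlisted in forebrain and LAD in mES cells. With so few list members at borders, the counts describe single genes and not the lists.

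A small set of borders did not move at all. The same bin edge was a border of the same side in all 3 maps at 55 places. By the first bin 44 of them were in no list in all 3 maps and none was KOD in all 3 or open in all 3, and by the next listed state 19 faced open in all 3 and 16 faced a LAD in all 3. By the next listed state, fixed borders were thus mostly LAD to open transitions and gaps that led back to a LAD. Not all of these gaps had the same length in the 3 maps. After base 4440000 of chromosome 1 the gap was 100 kb in forebrain, 110 kb in heart and 140 kb in mES cells. Another 2 of the 55 edges lay at the end of the mapped chromosome in all 3 maps. The only 1 of the 55 that touched a KOD in 1 map and open in another lay after base 50930000 of chromosome 15, with KOD outside in forebrain, open in heart and an unlisted gap of 20 kb before open in mES cells. Trps1, a repressor of GATA-driven transcription, lies 39.4 kb outside it. Some fixed edges came in pairs around a gap that was the same in all 3 maps. Such a gap of 10 kb lay at chr17:39840001-39850000, where RefSeq lists the ribosomal RNA pseudogene Rn18s-rs5 and the non-coding AY036118. Others were of 10 kb at chr2:98660001-98670000 with no annotated gene, and of 50 kb at chr1:143400001-143450000 with none. Why these bins were in no list in all 3 maps was not tested, so the edges around them need not be places where a LAD ends in the cells.

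Genes, which the choice of borders did not use, changed in density across them. In the 50 kb outside LAD borders a protein-coding gene overlapped 54.8% of bins in forebrain, 41.5% in the heart and 44.6% in mES cells, beside 46.7% of all bins. In the 50 kb inside, the shares were 37.4% in forebrain, 31.2% in the heart and 35.8% in mES cells. With non-coding genes and pseudogenes counted too, beside 59.4% of all bins, the outside shares were 69.2% in forebrain, 56.0% in the heart and 59.3% in mES cells and the inside ones 54.3%, 46.1% and 50.7%. The outside share was the higher one on 19 of 19 chromosomes in each source. Inside values were also above those of all LAD bins (26.3% in forebrain, 24.4% in the heart and 27.3% in mES cells). The inside values count each LAD end equally, so short LADs weigh more in them than in the shares of all LAD bins. Rim and interior of the same LADs were not compared. At heart borders touching a KOD the inside share was 24.7%, close to that of all heart LAD bins.

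Taken over the 50 kb on each side, the step was large at borders facing open and small at those facing a KOD. Outside and inside borders facing open, genes overlapped 54.8% and 33.1% of bins in forebrain, 43.3% and 28.2% in heart, and 43.0% and 33.0% in mES cells. Outside and inside borders facing a KOD, they overlapped 36.7% and 30.6% in forebrain, 28.8% and 26.1% in heart, and 39.1% and 35.2% in mES cells. The outside share was higher on 19 of 19 chromosomes in forebrain, 19 in the heart and 17 in mES cells at borders facing open, and on 15, 10 and 11 at borders facing a KOD. At the border itself the step was slight. In the first bin outside and inside borders facing open, genes overlapped 40.8% and 36.7% in forebrain. The same bins gave 31.7% and 29.2% in heart, and 33.8% and 33.5% in mES cells. Borders with LAD past a gap also had a step over 50 kb. Outside and inside them, the shares were 59.5% and 44.1% in forebrain, 42.2% and 33.5% in heart, and 46.7% and 37.8% in mES cells. KODs as a whole were not gene-poor, since genes overlapped 48.9% of all KOD bins in forebrain, 49% in the heart and 47.1% in mES cells, against 71.8%, 73.7% and 71.2% of all open bins. The 50 kb outside borders facing a KOD thus held fewer genes than KODs in general, but these 50 kb are not KOD alone. KODs that touched LADs had median lengths of 30 to 40 kb, and many led back to a LAD. The shares outside borders facing open were likewise below those of all open bins in each source, but these 50 kb are not open alone either. Of the borders facing open, 14.4% in forebrain, 15.2% in the heart and 8.56% in mES cells touched it. Outside the others the 50 kb began with bins in no list.

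Gene starts followed the same step and peaked at a distance from the border. Outside borders facing open, 8.24% of bins in forebrain, 7.44% in the heart and 7.24% in mES cells held a gene start, against 4.22%, 3.86% and 4.49% inside, beside 6.51% of all bins on the 18 chromosomes with promoter sequences used here. The peak stood at 50 to 60 kb outside in forebrain, where 11.02% of bins held a start, at 40 to 50 kb in heart with 13.4%, and at 40 to 50 kb in mES cells with 12.4%. At most borders facing open an unlisted gap stood first, with a median length of 30 kb in forebrain and 40 kb in heart and mES cells. The first bins outside were thus mostly in no list, and the distance of gene starts from the edge of the open domain was not measured. The distance of each border to its first gene start was not measured either. Outside borders facing a KOD, the share was 2.78% in forebrain, 2.91% in the heart and 2.21% in mES cells, below that of all bins.

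**Figure D5:**
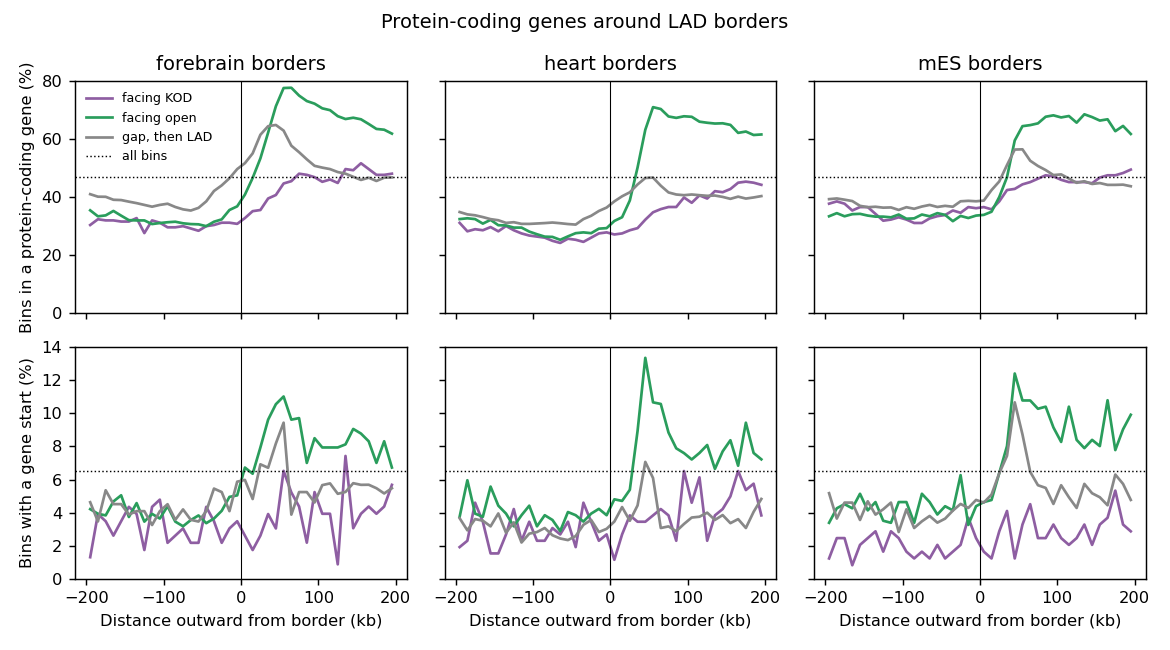
Share of 10 kb bins (%, vertical axes) that overlap a protein-coding gene (upper row) or hold a gene start (lower row), by distance outward from the border (kb, horizontal axis, negative inside the LAD), for forebrain, heart and mES borders facing a KOD, open, or LAD past a gap. Dotted lines are the share over all bins, 46.7% and 6.51%, and the curve for borders facing open rises outside the border to a peak of gene starts at 40 to 60 kb.

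The share of CpG-rich promoters differed between the 50 kb outside and the 50 kb inside borders facing open. A promoter was called CpG-rich where its 300 bases had a GC content above 50% and an observed to expected CG ratio above 0.6, which held for 47% of the 16457 promoters. Of the promoters printed above, Ppp3r1 met this rule, and Cnrip1, Pex5 and Cd163 did not. Within 50 kb outside borders facing open, 47.3% of gene starts in forebrain, 42.0% in the heart and 35.9% in mES cells were CpG-rich. Within 50 kb inside them, 16.2% in forebrain, 10.3% in the heart and 9.24% in mES cells were. Outer promoters thus matched the share of all promoters in forebrain and were below it in heart and mES cells, and inner ones were far below it in each source. Outside borders facing a KOD the CpG-rich starts were 6 of 34 in forebrain, 4 of 38 in heart and 8 of 27 in mES cells, and inside them 0 of 40, 2 of 41 and 7 of 27, counts too small to set the sources apart.

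Genes outside borders facing open were mostly transcribed away from the LAD. Counting each start once, 303 of 460 (65.9%) in forebrain, 262 of 406 (64.5%) in heart and 194 of 297 (65.3%) in mES cells within 50 kb outside ran away from the LAD. Inside the border the shares were 52.2% of 228 in forebrain, 51.7% of 203 in heart and 52.7% of 184 in mES cells. At 20 to 50 kb outside, 206 of 313 in forebrain, 213 of 301 in the heart and 152 of 218 in mES cells ran away from the LAD. At 10 to 20 kb, 44 of 71 in forebrain, 25 of 52 in the heart and 26 of 40 in mES cells did, and within 10 kb 53 of 76, 24 of 53 and 16 of 39. The excess was thus absent within 10 kb in heart and mES cells and within 20 kb in heart. Starts within 50 kb outside other borders also ran mostly away from the LAD. Outside borders facing a KOD, 21 of 32 starts in forebrain, 22 of 37 in heart and 20 of 22 in mES cells did so. Inside them 30 of 40, 25 of 41 and 15 of 27 did, and these counts are small. At borders with LAD past a gap, the outside shares were 61.3%, 61.6% and 59.6% in the same order. Inside those borders they were 58.3%, 60.4% and 51.7%. Ppp3r1 and Pex5 show both arrangements, since the LAD lies at lower coordinates in each case and Ppp3r1 is read on the plus strand, away from it, and Pex5 on the minus strand, toward it. Pex5, at 65.9 kb, lies beyond the 50 kb in which starts were counted.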

How the data were processed

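H3K9me2, Lamin B1 and IgG CUT&RUN libraries were made from forebrain, heart and mES cells, with groups taken from the labels. The submitters' processing notes name the mm10 genome and the tools Bowtie2 2.5.0, cutadapt 4.2, deepTools, Picard and Trim Galore. The deposited files used here are the authors' 9 lists of domains (chromosome, start and end in 10 kb bins, replicates pooled, no score or other value per domain). The rule for calling domains, and the part IgG plays in it, are not given in the sources used here, and a looser threshold or a deeper library can lengthen LADs, close gaps and move borders. The submitters' signal tracks were not used here. The depth per library is unknown, so no interval is given.

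Maps were painted in 10 kb bins over chromosomes 1 to 19 with Python 3.11.15, numpy 2.4.6 and pandas 2.3.3, and figures were drawn with matplotlib 3.10.9. Borders, classes, shared positions (within 20 kb) and shifts (reciprocal nearest borders of the same side within 500 kb) were computed as described in the results and checked on simulated maps. The reading by next listed state was added after the first bin had been seen to be mostly unlisted. Genes are the 20665 protein-coding genes of RefSeq GRCm38.p6 on these chromosomes, of which 16457 on 18 chromosomes had a promoter sequence. Of the gene lists, 19 of 20 pluripotency and 49 of 50 neuronal symbols were found in the annotation.

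Genes were named by rule. They are those in the 3 longest outward and 3 longest inward shifts per pair whose interval was listed in both maps in every bin, list members with at least 50% of the body in a displaced interval, and genes next to edges that are the same in all 3 maps with KOD or open as class. Examples with no gene or on chromosome 18 are counted and not all named. Some genes that the rule names are not reported here. The borders, rules and lists were chosen with earlier results of these data known. Chromosomes are pieces of 1 pooled map and not replicates, so their spread says nothing of other animals or cultures.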

Additional observations from a re-analysis of the deposited data

How the results depend on the processing

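Of 117 values under alternatives, 42 moved by less than the interval that counting error alone gives a share (95% binomial, or that of the median for shifts, which treats borders as independent and so is narrow), and 75 moved by more. These values are shares and absolute medians of a single source or pair, with no sign to reverse, but the order of sources did change in places named below. With LADs of at least 50 kb, the share of borders touching a KOD was 9.74% in forebrain, 8.80% in the heart and 10.98% in mES cells, with LADs of at least 200 kb 7.15%, 4.28% and 6.49%, and with LADs of any length 11.1%, 12.2% and 13.9%, so the heart had the lowest share only with a length minimum. In the second bin outside, KOD held 6.84%, 5.17% and 7.53% and open 16.6%, 10.2% and 8.16%. By the first listed bin within 50 kb, KOD held 10.2% in forebrain and 10.7% in mES cells and open 33.5% in forebrain, 20.1% in the heart and 20.6% in mES cells. By the next listed state at any distance, chosen after seeing the data, KOD held 10.7%, 7.87% and 10.8% and open 47.2%, 31.3% and 35.1%. With LADs joined across unlisted gaps of at most 20 kb, heart had 7.92% touching a KOD and 6.33% touching open. Heart and mES cells thus change order for open with the reading used, and forebrain had the highest open share under each of these readings.

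Shared positions depend on the tolerance. At the same edge 9.77% of forebrain borders were shared with mES cells, 7.99% of heart borders with mES cells and 8.71% of forebrain borders with heart, within 50 kb 45.9%, 31.5% and 46.5%, and within 100 kb 54.7%, 39.1% and 58.0%. With LAD ends of any length in the other source the shares were 35.8%, 25.5% and 40.7%. Joined LADs gave 24.9% for heart in mES cells and 32.5% for forebrain in heart, and outer borders alone, added after seeing the data, 25.6% for forebrain in mES cells. The class change at shared borders of forebrain and mES cells was 13.5% at the same edge. By the first listed bin within 50 kb the change was 42.7% for forebrain and mES cells, 37.6% for heart and mES cells and 40.4% for forebrain and heart. The median absolute shift was 30 kb under each alternative except forebrain and heart paired within 1000 kb, at 40 kb. With all annotated genes, 69.2% of bins outside forebrain borders, 56.0% outside heart and 59.3% outside mES borders overlapped a gene, against 54.3%, 46.1% and 50.7% inside. With LADs of at least 200 kb, 57.6%, 40.1% and 43.7% of outside bins overlapped a protein-coding gene, and 28.6% of inside bins in heart and 33.7% in mES cells, so the outside share stayed the higher one.

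No paired analysis was possible because the lists pool the replicates and their columns carry no replicate number. For the same reason no replicate was left out. Depth and signal over IgG at a border are unknown, positions are given to 10 kb, and differences between sources have no replicate error.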
